A study of Mus musculus with 12 samples.

Results

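Genes of cholesterol synthesis and cholesterol handling were compared between control MC38 cells, a mouse colon cancer line, and MC38 cells expressing the short or the long isoform of the adhesion protein CEACAM1. The 31 genes were chosen by name, with earlier results of these data known. They cover the route from acetyl-CoA to cholesterol, its control by the SREBP transcription factors, and the transport, efflux and storage of cholesterol. Of the 31 genes, 26 had a named probe on the array, with 50 probes among the 45281 of the array. A total of 21 genes had a probe detected on at least 4 of the 12 arrays and were tested, as part of 9100 tested genes.

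Cells make cholesterol from acetyl-CoA through mevalonate, isoprenoid units, squalene and lanosterol. When sterol in the endoplasmic reticulum runs low, the escort protein SCAP carries SREBP to the Golgi, where it is cut to release a transcription factor that turns on most enzymes of the route. INSIG proteins hold SCAP and SREBP back when sterol is plentiful, and liver X receptors turn on efflux genes when sterol is in excess.

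There were 4 arrays each for control cells, which the labels describe as lacking CEACAM1, for cells expressing CEACAM1-S (the S line) and for cells expressing CEACAM1-L (the L line). CEACAM1-L carries a long cytoplasmic tail with inhibitory tyrosine motifs that CEACAM1-S lacks. All 3 groups are syngeneic with the C57BL/6 strain, were kept in selection antibiotics and were grown for 72 h in medium with 10% serum. The labels name neither the vector of the control cells nor whether a line is 1 clone, and do not say whether the 4 samples of a group came from separate cultures. The spread behind the p-values below is therefore that of 4 arrays per group and could be technical. Each array reads the RNA of a whole culture, so a change in the share of cells expressing a gene and a change in RNA per cell cannot be told apart.

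The median raw signal of an array ranged from 86.6 to 103 units, with 32.5 to 35.5% of its probes detected. Ceacam1 read 4.92 ± 0.06 log2 units in control, 8.33 ± 0.39 in the S line and 6.55 ± 0.12 in the L line (SD, n = 4), and it was detected on all 4 control arrays. Of 9 epithelial markers, Krt8 was detected on all 12 arrays and Epcam, Krt18, Krt19, Krt20 and Vil1 on none, so 5 of the 9 markers of the labelled tissue were not detected. The epithelial markers Cldn7, Cdh1 and Cdx2 were detected on 9, 6 and 2 arrays. Of 7 mesenchymal markers, Vim, Fn1 and Pdgfra were detected on all 12 arrays and Col1a1, Cdh2, Pdgfrb and Col1a2 on 8, 6, 5 and 3. Of 4 immune markers with a named probe, Csf1r was detected on 7 arrays and Ptprc, Cd3e and Itgam on none. Of 3 endothelial markers, Kdr was detected on 10 arrays, Cdh5 on 5 and Pecam1 on none. The arrays were ranked by their highest raw signal and split into the upper 6 (set A) and the lower 6 (set B). Each set had 2 arrays of each group. The cut was set by rank and not by a gap in the values, and the labels name no chip or batch. Set A held control arrays 2 and 3, arrays 1 and 4 of the S line and arrays 2 and 3 of the L line, and set B held the rest.

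Mvk, Mvd, Insig1 and Cyp51 were the members that passed the test in both isoform lines against control. Their promoters are shown for that reason only. They are RefSeq sequences on GRCm38.p6, 5′ to 3′ on the gene's strand. Each runs from 250 bases before to 50 bases after the annotated start. Capitals mark CCAAT boxes, as CCAAT or its reverse complement ATTGG, and the E-box CACGTG. The regions are chr5:114444019-114444318 on the + strand for Mvk, chr5:28071162-28071461 on the + strand for Insig1, chr8:122443373-122443672 on the − strand for Mvd and chr5:4104648-4104947 on the − strand for Cyp51.
Mvk: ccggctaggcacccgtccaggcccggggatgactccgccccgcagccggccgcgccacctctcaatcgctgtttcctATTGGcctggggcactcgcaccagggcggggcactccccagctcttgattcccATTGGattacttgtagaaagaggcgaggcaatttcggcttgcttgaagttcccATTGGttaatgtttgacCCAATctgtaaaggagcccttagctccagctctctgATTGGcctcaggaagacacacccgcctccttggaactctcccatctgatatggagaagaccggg
Insig1: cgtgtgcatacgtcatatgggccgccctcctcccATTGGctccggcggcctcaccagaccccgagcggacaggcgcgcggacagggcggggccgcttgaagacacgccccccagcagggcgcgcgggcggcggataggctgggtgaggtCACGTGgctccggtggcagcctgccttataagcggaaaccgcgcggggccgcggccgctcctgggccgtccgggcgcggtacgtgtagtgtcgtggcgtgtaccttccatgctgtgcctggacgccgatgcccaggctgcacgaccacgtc
Mvd: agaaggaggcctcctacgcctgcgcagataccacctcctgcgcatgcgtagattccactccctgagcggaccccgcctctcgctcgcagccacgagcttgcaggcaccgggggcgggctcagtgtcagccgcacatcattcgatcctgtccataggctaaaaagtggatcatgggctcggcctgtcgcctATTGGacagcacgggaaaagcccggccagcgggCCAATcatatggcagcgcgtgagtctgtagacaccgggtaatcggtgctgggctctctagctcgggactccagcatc
Cyp51: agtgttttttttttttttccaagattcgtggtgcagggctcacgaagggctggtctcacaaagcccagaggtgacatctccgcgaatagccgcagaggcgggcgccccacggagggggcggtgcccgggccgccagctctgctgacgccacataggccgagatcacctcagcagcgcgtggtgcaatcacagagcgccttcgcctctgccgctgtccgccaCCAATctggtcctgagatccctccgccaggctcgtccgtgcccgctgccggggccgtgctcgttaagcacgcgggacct

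CCAAT boxes bind the factor NF-Y, a partner of SREBP at sterol-regulated promoters. The Mvk promoter held 5 of them, between 169 and 10 bases before the start. With the limit set by this count, 5 or more were found in 0.27% of the 32851 promoters of the RefSeq table. Mvd had 2 matches and Cyp51 and Insig1 had 1 each, and Insig1 also held an E-box 96 bases before the start. Msmo1 and Npc2, which passed in no comparison, held 3 and 2 CCAAT boxes, and Scap, which rose in the S line, held 0. Among the 25 listed genes with a promoter in that table, 20 held a CCAAT box (80%), as did 41.1% of all 27025 genes. The E-box was found in 6 of the 25 genes (24%) and in 8.09% of all genes. TCACNCCAC, a form of the sterol regulatory element with N for any base, was found in 1 of the 25, the HMG-CoA synthase gene Hmgcs1, and in 1.44% of all genes. All motifs were searched on both strands and no match overlapped another within a promoter. A match to these letters is a description and does not show that a factor binds there.

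In the L line, 9 of the 21 tested genes rose against control, 0 fell and 12 did not pass. Among all 9100 genes 36.2% passed in this comparison, 18.2% as higher and 18% as lower, and 42.9% of the tested members rose. The members were chosen with earlier results of these data known, so these shares are a description and not a test. The median log2 difference of the members was 0.33, within a range from −0.26 to 1.38, and the median of all tested genes was −0.01. For 8 members the 4 L-line arrays did not overlap the 4 control arrays, as was so for 32.6% of all genes. In the S line, 7 of the 21 rose, 0 fell and 14 did not pass, where 12.2% of all genes rose and 23.6% passed in either direction. The median over the members was 0.27, and 7 members had no overlap with control, as had 23.5% of all genes. The S-line and L-line comparisons share the same 4 control arrays, so their values stand side by side here and are not independent of each other.

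By array, and relative to the control mean of each gene, the median over the 21 members lay between 0.22 and 0.29 on the S-line arrays and between 0.26 and 0.49 on the L-line arrays. On L-line arrays 16 to 18 of the 21 members lay above their control mean, and on S-line arrays 15 to 17. The control arrays, whose own mean is the reference, gave medians between −0.14 and 0.07. These are the same 12 arrays as in the tests above and add no separate evidence. The count of rises depended on the normalization: with each array scaled to the same median in place of quantile normalization, 3 members rose in the L line (Mvk, Mvd and Insig1) and 0 in the S line. Counts over all genes fell with it, to 251 higher and 393 lower in the L line and to 151 higher and 125 lower in the S line. No member changed the sign of a called difference under that scaling.

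**Figure D1:**
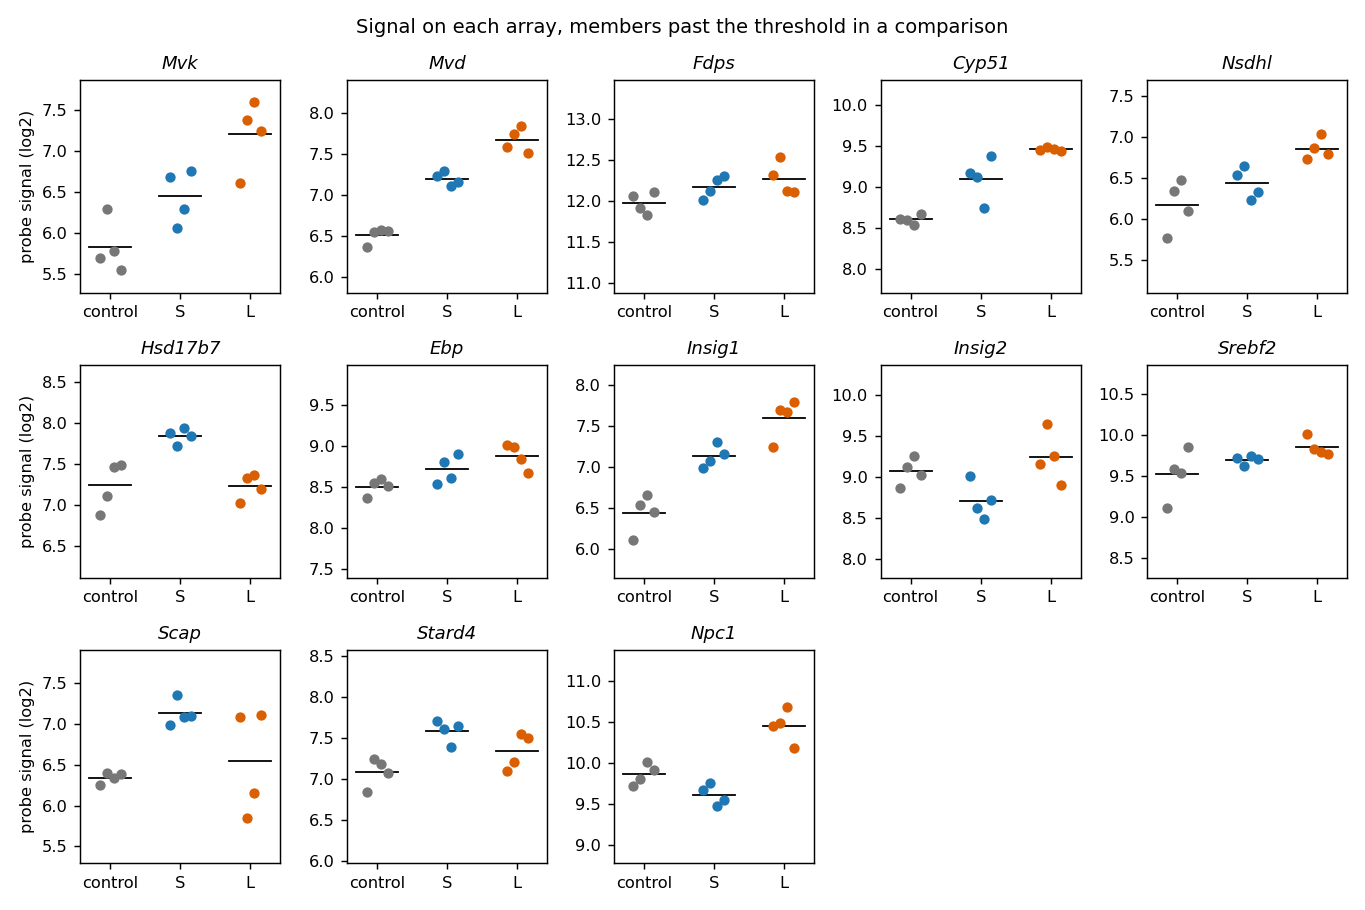
Normalized log2 signal (vertical axis) of the 13 members that passed the threshold in at least 1 comparison, with 1 point per array for control, CEACAM1-S (S) and CEACAM1-L (L) and a line at each group mean. Mvk, Mvd, Cyp51 and Insig1 step up from control to CEACAM1-S to CEACAM1-L, while Hsd17b7 and Stard4 are highest in CEACAM1-S and the 4 CEACAM1-L arrays of Scap lie in 2 pairs.

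The early steps, from acetyl-CoA to isoprenoid units, held the largest rise, that of Mvk. Mvk encodes mevalonate kinase, which adds the first phosphate to mevalonate. Its log2 signals were 5.69, 6.30, 5.78 and 5.55 on control arrays 1 to 4, 6.69, 6.06, 6.30 and 6.77 in the S line and 6.62, 7.38, 7.60 and 7.25 in the L line. All 4 L-line arrays lay above all control arrays, while the S line overlapped control. Mvk was higher than control by 1.38 ± 0.21 (SE) log2 units in the L line (2.61-fold, adjusted p = 1.24e-05) and by 0.62 ± 0.21 in the S line (1.54-fold, adjusted p = 0.0329). Without background correction the Mvk differences were 0.76 and 0.30, and in the authors' processed values 0.62 and 0.24, where the S-line value did not pass (adjusted p = 0.0592 and 0.0723). The S-line value was the less stable one: it missed the threshold without any one of control 1, control 3, control 4, S-line array 1 or S-line array 4, with differences from 0.52 to 0.61 and adjusted p up to 0.109. Mvk had 1 probe, designed on a cDNA clone.

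Mvd encodes the decarboxylase that makes isopentenyl diphosphate, the building block of all isoprenoids. It read 6.37, 6.56, 6.57 and 6.56 in control, 7.23, 7.29, 7.11 and 7.16 in the S line and 7.59, 7.75, 7.85 and 7.52 in the L line. No arrays of different groups overlapped. The difference from control was 1.16 ± 0.14 (SE) in the L line (2.24-fold, adjusted p = 3.81e-07) and 0.68 ± 0.14 in the S line (1.61-fold, adjusted p = 0.000605). The Mvd differences were 0.75 and 0.41 without background correction and 0.63 and 0.34 in the authors' processed values, and passed in each.

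Pmvk encodes the kinase between those steps, and it did not pass in any comparison. It read 6.95 ± 0.25 in control, 7.27 ± 0.09 in the S line and 7.04 ± 0.38 in the L line (SD, n = 4), and the 95% interval of the L-line difference ran from −0.27 to 0.45. Fdps makes farnesyl diphosphate, at the branch between sterols and prenylated proteins. It read 12.05, 11.91, 11.83 and 12.10 in control, 12.01, 12.12, 12.26 and 12.30 in the S line and 12.31, 12.53, 12.12 and 12.11 in the L line. The lowest L-line array stood 0.008 log2 units above the highest control array. Fdps rose by 0.30 ± 0.10 (SE) in the L line (adjusted p = 0.0223) and differed by 0.20 ± 0.10 in the S line (adjusted p = 0.159). Without control 2, control 3, L-line array 1 or L-line array 2 the L-line value fell to between 0.21 and 0.28 and missed the threshold. The second Fdps probe differed by 0.39 in the L line (adjusted p = 0.14) and 0.54 in the S line (adjusted p = 0.0514). It was detected on 1 control, 3 S-line and 2 L-line arrays. Idi1, which isomerises isopentenyl diphosphate, was detected on 1 array and was not tested, and no named probe was found for Acat2 and Hmgcs1.

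Sqle and Lss turn squalene into lanosterol, the first sterol of the route, and neither passed in any comparison. Sqle, squalene epoxidase, read 10.12 ± 0.13 in control, 10.10 ± 0.15 in the S line and 10.28 ± 0.15 in the L line (SD, n = 4). Its 95% interval in the L line was −0.05 to 0.37 and in the S line −0.23 to 0.19, so a rise of the size seen for Mvd lay outside both. Lss, lanosterol synthase, differed by 0.31 ± 0.14 (SE) in the L line (adjusted p = 0.0817) and by 0.30 ± 0.14 in the S line (adjusted p = 0.127). The second Lss probe gave −0.10 (adjusted p = 0.733) and 0.19 (adjusted p = 0.543) in the same order. It was detected on 3 control, 4 S-line and 2 L-line arrays. No named probe was found for Fdft1, squalene synthase.

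From lanosterol to cholesterol, 3 of 7 tested enzymes rose in the L line and 2 in the S line, where 18.2% and 12.2% of all genes did. Cyp51 encodes the demethylase that acts on lanosterol. It read 8.62, 8.60, 8.54 and 8.68 in control, 9.17, 9.13, 8.75 and 9.39 in the S line and 9.46, 9.49, 9.47 and 9.44 in the L line. No arrays of different groups overlapped, and the S-line arrays spread widest (SD 0.26, against 0.02 in the L line). Cyp51 rose by 0.86 ± 0.11 (SE) in the L line (1.81-fold, adjusted p = 2.06e-06) and by 0.50 ± 0.11 in the S line (1.41-fold, adjusted p = 0.00206).

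Nsdhl, which takes part in removing the methyl groups of lanosterol, read 5.77, 6.34, 6.48 and 6.10 in control, 6.54, 6.64, 6.24 and 6.33 in the S line and 6.74, 6.87, 7.04 and 6.79 in the L line. The L-line arrays lay above all others. Nsdhl rose by 0.69 ± 0.17 (SE) in the L line (1.61-fold, adjusted p = 0.00261), and the S line differed by 0.27 ± 0.17 (adjusted p = 0.293). The L-line difference was 0.37 without background correction and 0.30 in the authors' processed values, and passed in both. A further Nsdhl probe rose by 0.54 in the L line (adjusted p = 0.0279). Another one, detected on 2 of 4 control arrays, rose in the S line, by 0.60 (adjusted p = 0.0393), and in the L line gave 0.39 (adjusted p = 0.152). The Nsdhl probes thus disagreed on which isoform line passed, and all 3 kept probes gave positive differences in both lines. Ebp, a sterol isomerase, read 8.37, 8.56, 8.60 and 8.52 in control, 8.54, 8.80, 8.62 and 8.91 in the S line and 9.02, 8.99, 8.85 and 8.67 in the L line. Ebp rose by 0.37 ± 0.12 in the L line (1.3-fold, adjusted p = 0.0134), with no overlap of the arrays with control, and differed by 0.21 ± 0.12 in the S line (adjusted p = 0.214).

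Hsd17b7, a sterol ketone reductase, was the one tested enzyme that passed the test as lower in the L line than in the S line. It read 6.88, 7.11, 7.47 and 7.49 in control, 7.88, 7.72, 7.94 and 7.85 in the S line and 7.02, 7.33, 7.37 and 7.19 in the L line. All S-line arrays lay above all others. The difference from control was 0.61 ± 0.15 (SE) in the S line (1.53-fold, adjusted p = 0.00372) and −0.01 ± 0.15 in the L line (adjusted p = 0.973), and the L line lay below the S line by −0.62 ± 0.15 (adjusted p = 0.00311). In the authors' processed values the last difference was −0.36 and the S-line rise 0.37, and both passed. Tm7sf2, Msmo1 and Dhcr7, a sterol reductase, a methylsterol oxidase and the reductase of the last step, did not pass. Their differences in the L line were 0.39, −0.26 and 0.49, with adjusted p from 0.0713 to 0.234, and in the S line −0.08, −0.23 and 0.30 (adjusted p from 0.331 to 0.817). Tm7sf2 was detected on all 4 L-line arrays and on 1 array each of control and the S line, so it met the detection filter only through the L line. Sc5d, a sterol desaturase, was detected on 2 S-line arrays and was not tested.

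**Figure D2:**
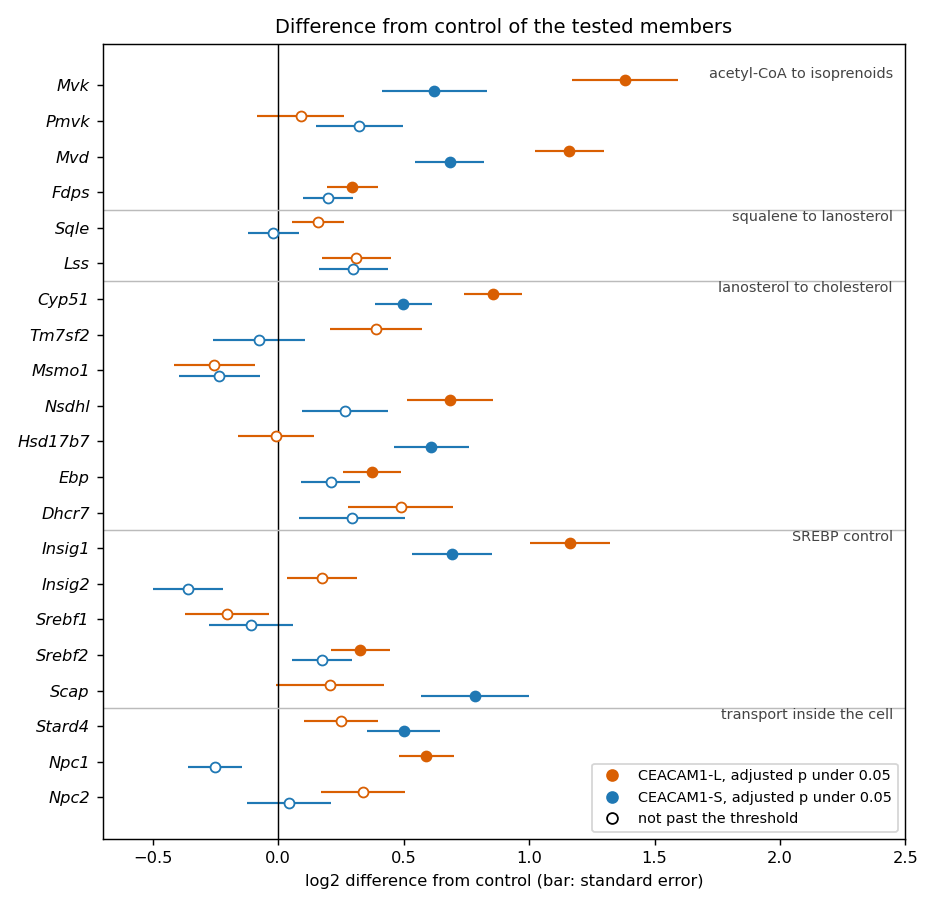
Log2 difference from control (horizontal axis) of the 21 tested members by role, for CEACAM1-L (orange) and CEACAM1-S (blue), with bars of 1 standard error of the fit; filled points passed at an adjusted p under 0.05. In CEACAM1-L 18 of the 21 points lie right of 0 and 9 are filled, and in CEACAM1-S 15 lie right of 0 and 7 are filled.

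Among the genes that control SREBP, Insig1 rose in both lines. Insig1 encodes a protein of the endoplasmic reticulum that retains SCAP, and it is itself a target of SREBP. It read 6.10, 6.54, 6.66 and 6.44 in control, 6.99, 7.08, 7.30 and 7.15 in the S line and 7.24, 7.69, 7.67 and 7.79 in the L line. Both isoform lines lay above control without overlap, and they overlapped each other. The rise was 1.16 ± 0.16 (SE) in the L line (2.24-fold, adjusted p = 2.9e-06) and 0.69 ± 0.16 in the S line (1.62-fold, adjusted p = 0.00205). The Insig1 differences were 0.73 and 0.41 without background correction and 0.61 and 0.33 in the authors' processed values, and passed in each. A second Insig1 probe gave 1.21 in the L line (adjusted p = 1.39e-05) and 0.75 in the S line (adjusted p = 0.00448). One more kept probe gave 0.37 (adjusted p = 0.237) and 0.43 (adjusted p = 0.212), and another was detected on no array.

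Insig2 encodes the related retention protein, which in mouse liver is not driven by SREBP. It did not pass against control, at 0.17 ± 0.14 (SE) in the L line (adjusted p = 0.359) and −0.36 ± 0.14 in the S line (adjusted p = 0.0635). Between the isoform lines it did pass, with 9.01, 8.63, 8.49 and 8.73 in the S line and 9.17, 9.66, 9.26 and 8.91 in the L line. The control arrays, at 8.88, 9.13, 9.26 and 9.03, overlapped both lines. Insig2 was 0.53 ± 0.14 higher in the L line than in the S line (1.45-fold, adjusted p = 0.00562), and its second probe was 0.39 higher (adjusted p = 0.0112).

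Srebf2 encodes the SREBP that acts mainly on sterol synthesis. It read 9.11, 9.59, 9.54 and 9.86 in control, 9.72, 9.63, 9.74 and 9.70 in the S line and 10.01, 9.83, 9.80 and 9.77 in the L line. Control 1 was the lowest array and control 4 lay within the L-line values, so the groups overlapped. Srebf2 rose by 0.33 ± 0.12 (SE) in the L line (1.26-fold, adjusted p = 0.0338) and differed by 0.18 ± 0.12 in the S line (adjusted p = 0.324). Without control 1 the L-line value was 0.19 (adjusted p = 0.173), and it also missed the threshold without control 3 (0.33), L-line array 1 (0.27) or L-line array 2 (0.34). A second Srebf2 probe, designed on a cDNA clone, rose by 0.55 in the L line (adjusted p = 0.00738). Srebf1 encodes the SREBP that acts mainly on fatty acid synthesis. It differed by −0.20 ± 0.17 in the L line (adjusted p = 0.38) and by −0.11 ± 0.17 in the S line (adjusted p = 0.706), and did not pass.

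Scap, the escort of SREBP, rose in the S line and was split in the L line. It read 6.25, 6.40, 6.33 and 6.38 in control, 6.98, 7.35, 7.08 and 7.09 in the S line and 7.08, 5.85, 6.16 and 7.11 in the L line. L-line arrays 2 and 3, the arrays of set A, lay below every control array, and L-line arrays 1 and 4 lay above every control array. The S-line rise was 0.78 ± 0.22 (SE) (1.72-fold, adjusted p = 0.0088), with 0.67 in set A and 0.90 in set B. It was 0.46 without background correction and 0.37 in the authors' processed values, and passed in both. The L line differed from control by 0.21 ± 0.22 (adjusted p = 0.497), with −0.36 in set A and 0.78 in set B. The L line lay below the S line by −0.58 ± 0.22 (adjusted p = 0.0495), with −1.03 in set A and −0.12 in set B. Without L-line array 2 that difference was −0.34 (adjusted p = 0.244) and without L-line array 3 it was −0.45 (adjusted p = 0.172). In the authors' processed values it was −0.25 (adjusted p = 0.0556), and −0.32 without background correction (adjusted p = 0.0467). With the main processing it passed when L-line array 1 or L-line array 4 was left out, and it missed the threshold when any other single array was, so the call rests on which arrays enter. The second Scap probe was detected on no array.

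Of the carriers that move cholesterol inside the cell, 1 of 3 rose in each line, Npc1 in the L line and Stard4 in the S line. Of all genes 18.2% rose in the L line and 12.2% in the S line, and 3 genes are too few to set against those shares. Stard4 encodes a soluble sterol carrier. It read 6.84, 7.25, 7.18 and 7.08 in control, 7.71, 7.60, 7.39 and 7.64 in the S line and 7.10, 7.21, 7.54 and 7.51 in the L line. The S-line arrays lay above all control arrays and the L-line arrays overlapped both groups. Stard4 rose by 0.50 ± 0.15 (SE) in the S line (1.41-fold, adjusted p = 0.0146) and differed by 0.25 ± 0.15 in the L line (adjusted p = 0.194). The isoform lines did not pass against each other (−0.25, adjusted p = 0.234). In the authors' processed values the S-line rise was 0.29 (adjusted p = 0.013). With the main processing it was 0.42 without control 1 (adjusted p = 0.0536) and 0.46 without S-line array 1 (adjusted p = 0.0504).

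Npc1 encodes the membrane protein that exports cholesterol from lysosomes. Its brightest probe read 9.71, 9.81, 10.01 and 9.91 in control, 9.67, 9.76, 9.47 and 9.54 in the S line and 10.45, 10.49, 10.68 and 10.18 in the L line. The L-line arrays lay above all others, and the S-line arrays reached lower than control. Npc1 rose by 0.59 ± 0.11 (SE) in the L line (1.51-fold, adjusted p = 0.000119) and differed by −0.25 ± 0.11 in the S line (adjusted p = 0.0962). The lines differed by 0.84 ± 0.11 (1.79-fold, adjusted p = 2.32e-06), the largest difference between them among the members. A second Npc1 probe was detected on 2 of 4 S-line arrays and on all control and L-line arrays. It gave 0.76 for the L line against control (adjusted p = 0.00728) and 0.87 between the lines (adjusted p = 0.00379). One more kept probe gave −0.14 (adjusted p = 0.595) and 0.12 (adjusted p = 0.674) for these comparisons, and 4 others were not kept. Npc2, the soluble partner of Npc1, differed by 0.34 ± 0.17 in the L line (adjusted p = 0.124) and by 0.04 ± 0.17 in the S line (adjusted p = 0.896).

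**Figure D3:**
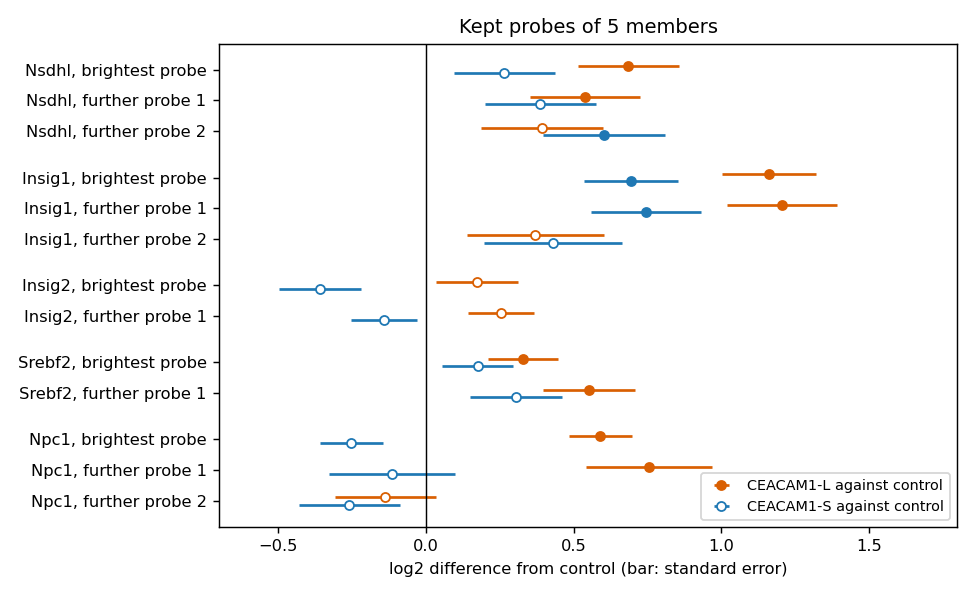
Log2 difference from control (horizontal axis, bars of 1 standard error) for each kept probe of 5 members with more than 1 kept probe, for CEACAM1-L (orange) and CEACAM1-S (blue), from a fit of all kept probes for the further probes; filled points passed at an adjusted p under 0.05. A pair of Insig1 probes lies near 1.2 in CEACAM1-L while the remaining one lies at 0.37, and 1 Npc1 probe lies left of 0 in CEACAM1-L while the other two lie at 0.59 and 0.76.

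The efflux and storage end of the pathway was largely out of reach of these arrays. The efflux transporters Abca1 and Abcg1 were detected on no array, and the pair of probes for the liver X receptor gene Nr1h3 on 1 array each. No named probe was found for Nr1h2, the other liver X receptor, or for Soat1, which esterifies cholesterol. No member of these groups was tested, so nothing can be said here of sterol efflux.

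Between the isoform lines, 6 members were higher and 2 lower in the L line than in the S line, where 26.2% of all genes passed, 13.2% as higher and 12.9% as lower. Groups did not overlap for 6 members and for 25.8% of all genes. Mvk was higher in the L line by 0.76 ± 0.21 (SE) (adjusted p = 0.00891), Mvd by 0.48 ± 0.14 (adjusted p = 0.012) and Npc1 by the 0.84 given above. In the authors' processed values these were 0.39 for Mvk, 0.29 for Mvd and 0.80 for Npc1, and passed, and Mvk gave 0.46 without background correction (adjusted p = 0.00406). Cyp51 was higher by 0.36 ± 0.11 (adjusted p = 0.0219), and this missed the threshold without S-line array 3 (0.24, adjusted p = 0.124) or L-line array 2 (0.35, adjusted p = 0.0525). Insig1 was higher by 0.47 ± 0.16 (adjusted p = 0.0306), and this missed the threshold without any one of S-line arrays 1, 2 and 4 and L-line arrays 2, 3 and 4, with values from 0.41 to 0.48. It was 0.28 in the authors' processed values (adjusted p = 0.0132). The further kept Insig1 probes did not pass between the lines, at 0.46 (adjusted p = 0.0745) and −0.06 (adjusted p = 0.892). Hsd17b7 and Scap were the members lower in the L line. No member passed in this comparison with scaling to the median, where 124 of 9100 genes were higher and 171 lower.

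The differences were also taken within set A and within set B, each with 2 arrays per group. In the L line the difference had the same sign in both sets for 18 of the 21 members. The counts were 17 in the S line and 18 between the lines. The sets split the same arrays as the tests above, and each main difference is the mean of its set differences. A large difference thus tends to keep its sign, so these counts add no separate evidence. No share over all genes is given beside them, and the members named next had passed the test in the line given. In the L line Mvk gave 1.45 in set A and 1.32 in set B, Mvd 1.23 and 1.09, and Insig1 1.09 and 1.24. In the S line Mvd gave 0.63 and 0.74 and Cyp51 0.71 and 0.29.

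Some of these genes lie on chromosomes whose other genes also differed between the groups. Mvk, Insig1 and Cyp51 lie on chromosome 5, where 42.2% of the 625 tested genes were higher in the L line than in control, with a median of 0.26. In the S line 19.4% of chromosome 5 genes were higher, with a median of 0.05. Scap lies on chromosome 9, where 47.2% of 508 tested genes were higher in the S line, with a median of 0.37, and 25% in the L line, with a median of 0.07. The part of these chromosome-wide shifts in the members' differences was not tested. Among the 17 tested members on other chromosomes, 6 rose in the L line (35.3%) and 3 in the S line (17.6%), and 0 fell in either line. Of the 7967 tested genes on other chromosomes, fitted alone, 15.8% were higher in the L line and 9.13% in the S line.

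The nearest tested genes, 10 on either side, were compared with each member. Around Cyp51 their median in the L line was 0.43, with 11 of 20 higher and 1 above Cyp51 itself. Around Insig1 the median was 0.41, with 11 of 20 higher and 0 above Insig1. Around Mvk it was 0.26, with 8 of 20 higher and Tmem119 (2.77) and 1500011B03Rik (1.97) above Mvk. Mmab, a gene of cobalamin metabolism that is the tested gene next to Mvk, rose by 0.61 in the L line (adjusted p = 0.00305) and by 0.43 in the S line (adjusted p = 0.0428). It also belongs to the list of other sterol genes below and is counted there. Around Scap the S-line median was 0.41, with 10 of 20 higher. Mvd lies on chromosome 8. Its 20 neighbours had a median of −0.17 in the L line and −0.02 in the S line, and 0 of them were above Mvd in either line.

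**Figure D4:**
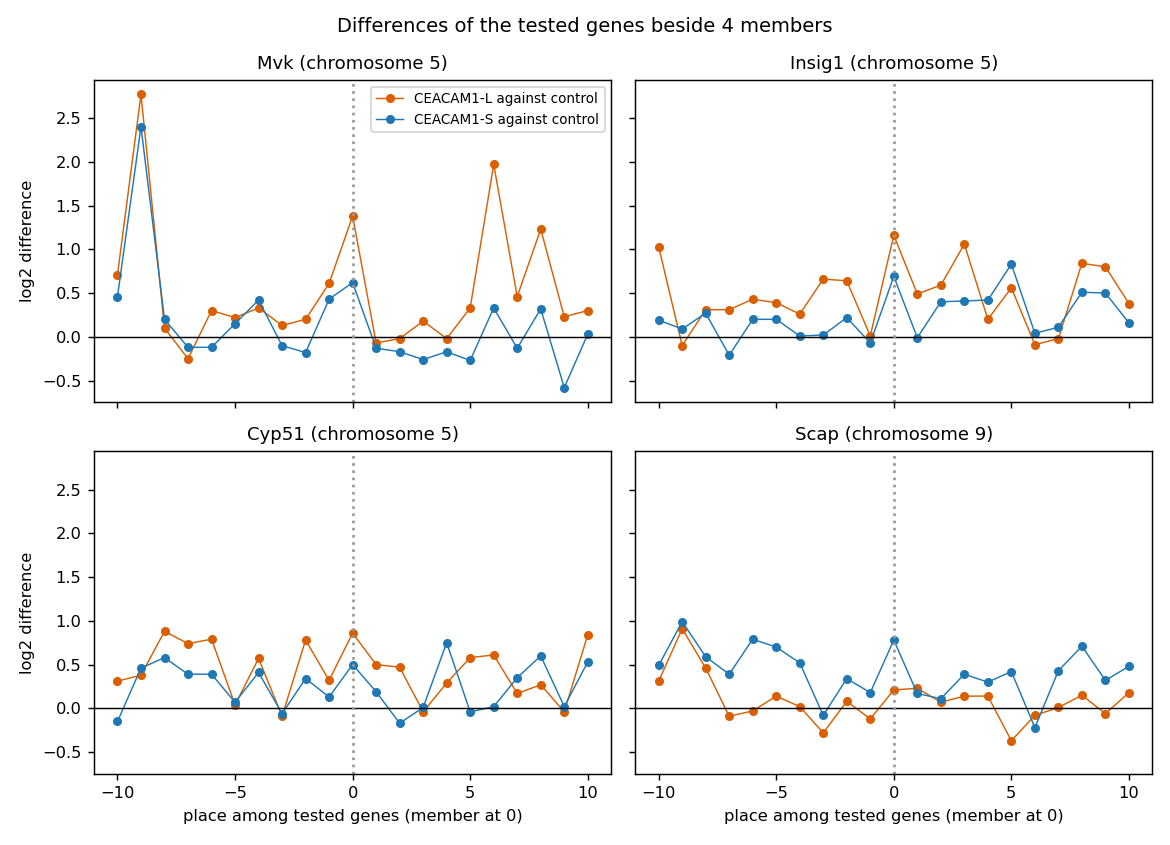
Log2 difference from control (vertical axis) of the 10 tested genes on either side of Mvk, Insig1, Cyp51 and Scap, placed by their order along the chromosome (horizontal axis, member at 0), for CEACAM1-L (orange) and CEACAM1-S (blue). Most neighbours of Insig1 and Cyp51 lie above 0 in CEACAM1-L and most neighbours of Scap lie above 0 in CEACAM1-S, with medians of 0.41, 0.43 and 0.41.

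Other genes of sterol uptake and turnover were taken from a list of 25, of which 16 were tested. This list and those below were also chosen with earlier results of these data known, so their shares are descriptions. In the L line 5 rose and 2 fell (31.2% and 12.5%), in the S line 5 rose and 1 fell, and between the lines 4 were higher in the L line and 0 lower. Of all genes 18.2% were higher and 18% lower in the L line, 12.2% and 11.4% in the S line, and 13.2% and 12.9% between the lines. Their median difference was 0.26 in the L line and 0.14 in the S line. Mmab, the tested gene next to Mvk on chromosome 5, is counted among the rises in both lines. Hsd3b7, an enzyme of bile acid synthesis, rose by 1.11 ± 0.11 (SE) in the L line (adjusted p = 2.58e-08) and by 0.35 ± 0.11 in the S line (adjusted p = 0.0244). Lipa, the lysosomal lipase that frees cholesterol from its esters, rose by 1.06 ± 0.20 in the L line (adjusted p = 0.000141) and by 0.72 ± 0.20 in the S line (adjusted p = 0.00806). Nceh1, a neutral cholesterol ester hydrolase, rose by 0.80 ± 0.10 in the L line (adjusted p = 5.48e-07) and by 0.43 ± 0.10 in the S line (adjusted p = 0.0021). Scarb1, a receptor for high-density lipoprotein that lies on chromosome 5, was detected on 4 arrays of the L line, 1 of the S line and 2 of control. It read 5.77 ± 0.22 in the L line, 4.76 ± 0.27 in the S line and 4.94 ± 0.26 in control (SD, n = 4). Scarb1 met the detection filter only through the line where it was high, and it is 1 of the 5 genes counted as higher in the L line than in control and 1 of the 4 counted as higher than in the S line.

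Genes that use isoprenoids for other ends, in protein prenylation, dolichol and ubiquinone, were taken from a list of 14. Of 11 tested, 2 rose and 2 fell in the L line, 0 rose and 1 fell in the S line, and the medians were −0.08 and −0.01. The L-line shares, 18.2% each way, lay at those of all genes (18.2% higher and 18% lower), and 12.2% of all genes rose and 11.4% fell in the S line. Zmpste24, a protease that processes prenylated lamin A, fell by 0.63 log2 units in the L line (adjusted p = 0.000195), and Icmt, which methylates prenylated proteins, rose by 0.43 (adjusted p = 0.00835). Rabggta, a subunit of the enzyme that prenylates Rab proteins, was lower in the S line by −0.45 (adjusted p = 0.0126) and in the L line by −0.36 (adjusted p = 0.0361). Dhdds, of dolichol synthesis, was lower in the L line than in the S line by −0.63 (adjusted p = 0.00633).

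Fatty acid synthesis genes, the other branch under SREBP, had 14 tested members. In the L line 5 rose and 0 fell (35.7%) and in the S line 6 rose and 0 fell (42.9%), with medians of 0.27 and 0.07. Of all genes 18.2% rose in the L line and 12.2% in the S line, with medians of −0.01. Lpin1, a phosphatidate phosphatase, had the largest rise, of 1.41 ± 0.18 (SE) in the L line (2.66-fold, adjusted p = 1.27e-06) and of 0.79 ± 0.18 in the S line (1.73-fold, adjusted p = 0.00222). Fads2, a fatty acid desaturase, rose by 0.76 ± 0.12 in the S line (adjusted p = 2.09e-05) and by 0.41 ± 0.12 in the L line (adjusted p = 0.00664), and was lower in the L line than in the S line (−0.35, adjusted p = 0.0253). Elovl5, a fatty acid elongase on chromosome 9, rose by 0.65 ± 0.10 in the S line (adjusted p = 2.61e-05) and by 0.44 ± 0.10 in the L line (adjusted p = 0.00107). Scd2, a stearoyl-CoA desaturase, rose by 0.71 ± 0.24 in the S line (adjusted p = 0.0299) with overlapping arrays, and differed by 0.44 ± 0.24 in the L line (adjusted p = 0.151). Srebf1 itself, as given above, did not pass in either line.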

How the data were processed

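RNA of 12 MC38 samples was hybridised to 1-colour Illumina mouse bead arrays, 1 array per sample. The deposited non-normalized table gives a signal intensity and a detection p-value per probe and array, per the file headers. Its lowest intensities lie between 68.6 and 81.4 units per array. Whether the authors had subtracted a background is not stated, and neqc was run as for uncorrected values. The authors' processed values are on a log2 scale with nearly equal array medians, were deposited without a method stated in the sources used here, and served as an alternative. Lumi 2.6.0 appears in the submitters' processing notes, with no role given. All columns were matched to samples, leaving 0 unmapped.

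The platform annotation gave 1 symbol to 34885 of 45281 probes, several to 18 and none to 10378. Gene IDs of 34807 matched assembly GRCm38.p6, which changed 0 symbols. The neqc function of limma 3.58.1 under R 4.3.3 was applied to the intensities. It infers the background from the detection p-values, adds an offset of 16, and applies quantile normalization and log2. A probe was kept if its detection p-value was below 0.05 on 4 or more of the 12 arrays (16330 probes). Among several kept probes the one of highest mean stood for the gene. Of 19057 named genes, 9100 were tested.

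A model with 3 group means was fitted by lmFit over the 12 arrays. Two-sided tests used eBayes with a trend of variance on the mean, with 9 residual and 15.5 prior degrees of freedom. All adjusted p-values are limma's, with Benjamini-Hochberg adjustment over all tested genes and a threshold of 0.05. Further probes of a gene come from the same fit over all 14091 named kept probes. Errors of levels are SDs over 4 arrays and errors of differences are standard errors of the fit. The fitting code was tested on simulated data. The number of arrays limits the precision.

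The members and lists were chosen with earlier results of these data known. Array values are given for members past the threshold in at least 1 comparison, up to 4 genes are named from each wider list, those with the largest difference past the threshold, and promoters are shown for up to 4 members past it in both lines. Tmem119, 1500011B03Rik and Mmab were named after their values were seen. Alternatives covered background correction, normalization, the filter, the choice of probe, the authors' values, array weights, the variance model and blocks. They also covered the sets by raw signal, single arrays left out and chromosomes 5 and 9 left out. Scaling to the median together with the set block was added after seeing the data. The highest raw signal ran from 30290 to 40614 units in set A, against 17443 to 27138 in set B.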

Additional observations from a re-analysis of the deposited data

Results flagged for a closer look

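Among 63 groups of 4 arrays, 1 per tested member and group, an array stood apart from its group in 2, by the gap to its nearest neighbour over the whole range of the group (limit 0.829). Chance alone passes this limit in about 1 of 20 groups. Pmvk was low on control 3, at 6.58 against 7.04 to 7.09 on the other control arrays (ratio 0.905). Mvd was low on control 1, at 6.37 against 6.56 to 6.57 (ratio 0.912), and its rise in both lines passed without that array.

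For 8 of the 21 tested members the isoform lines differed by the test of CEACAM1-L against CEACAM1-S itself. Of all 9100 genes 26.2% passed in this comparison. The isoform, the level of Ceacam1 and other differences between the lines cannot be told apart here. The log2 difference was 0.84 for Npc1, 0.76 for Mvk, 0.53 for Insig2, 0.48 for Mvd, 0.47 for Insig1 and 0.36 for Cyp51, with CEACAM1-L higher. It was −0.62 for Hsd17b7 and −0.58 for Scap, with CEACAM1-S higher.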

How the results depend on the processing

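Of 24 member calls, Mvk, Mvd and Insig1 in CEACAM1-L against control kept theirs under all 26 or 27 alternatives that gave them a value, and no called difference of a member changed sign. With scaling to the median, alone or with the set block (added after seeing the data), the rises numbered 3 in CEACAM1-L and 0 in CEACAM1-S, and 0 members differed either way between the lines. The median standard error of the members was then 0.34 and 0.28, in place of 0.15. The median of all genes moved to −0.11 in CEACAM1-L, and 39% of its calls were higher with scaling alone and 34.4% with the block, in place of 50.2%. Of all genes 2.76% were higher in CEACAM1-L with scaling alone and 4.55% with the block, and 1.66% and 2.81% in CEACAM1-S. Between the lines 1.36% and 2.44% were higher, and 171 and 363 of the 9100 genes were lower. Within set B, 2 members rose in CEACAM1-S, and 1 was higher and 0 lower between the lines. There 5.59% of all genes were higher in CEACAM1-S and 3.9% between the lines, where 322 of 9100 were lower. Without chromosomes 5 and 9, 3 rose in CEACAM1-S, and 3 were higher and 1 lower between the lines. Of the genes left, 9.13% were higher in CEACAM1-S and 12.4% between the lines, where 936 of 7967 were lower.

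A member was called lower in CEACAM1-S against control with array weights (1, Npc1), the set block (1, Insig2) and within set A (1, Msmo1). Of all 9100 genes 1266, 1204 and 937 were lower there, in the same order. Hsd17b7 was the 1 member called lower between the lines, in CEACAM1-L, with no filter on detection, the mean of a gene's probes, every probe tested, the authors' values and no mean-variance trend. In the same order, 918 of 19057 genes, 1158 of 9100 genes, 1576 of 14091 probes, and 1200 and 1058 of 9100 genes were lower. Leaving out each array in turn gave 7 to 10 rises in CEACAM1-L and 5 to 7 rises and 0 to 1 falls in CEACAM1-S. Between the lines it gave 5 to 6 higher and 1 to 2 lower. Of all genes 16.1 to 18.5% were then higher in CEACAM1-L, 10.4 to 12.5% in CEACAM1-S and 10.9 to 13.8% between the lines. Counts of lower genes were then 822 to 1067 of 9100 in CEACAM1-S and 919 to 1236 between the lines. No pairing by replicate number was seen (residual correlations of same-numbered arrays from −0.198 to 0.187, and 0 arrays correlated best with their own number). Same-numbered arrays fall in both sets, and the mean residual correlation was 0.122 within a set and −0.12 across sets. A pairing could thus be hidden. The replicate block left 1 member lower between the lines, where 1118 of 9100 genes were lower, and changed 1 of 24 member calls, that of Scap.

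Without background correction and in the authors' values, all 24 called differences were smaller, and those that moved by over 1.5 times stand beside their results. In raw intensities Mvk spanned 100.9 to 178.4 units in control and 136.8 to 300.5 in CEACAM1-L, so these groups overlapped before normalization. Scap between the lines lost its call under 19 of 26 alternatives, Mvk in CEACAM1-S under 12 of 26, Insig1 between the lines under 11 of 26, and Srebf2 and Fdps in CEACAM1-L under 10 and 9 of 27. The causes were not tested. Members under the detection limit, the efflux genes among them, could not be examined.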
